A study of Mus musculus with 8 samples.

Results

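Libraries of J1 mouse embryonic stem cells labelled eIF4A3 knockdown with Ccnb1 expression were compared with libraries of the same line labelled eIF4A3 knockdown with control expression, 2 libraries a group. The members described were the genes counted at least 200 times in each of these 4 libraries, called well counted below, and they were 3749 of the 37310 genes listed. Levels in 2 J1 libraries with control knockdown and control expression served as the reference for how far each gene returned. The groups are called labelled KD+Ccnb1, labelled KD and control.

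The study carried out an RNAi screen of RNA helicases in embryonic stem cells and followed eIF4A3. J1 is a line of the 129S4/SvJae strain, grown without feeder cells on gelatin in serum and leukemia inhibitory factor, the cytokine that sustains mouse embryonic stem cells. Cells of all 3 groups were transfected, drug-selected, infected with lentivirus, kept under puromycin at 1 µg/mL (2.5 days) and collected on day 4.5 of infection. The labels do not say which construct was transfected and which came by lentivirus, or whether the libraries of a group came from separate cultures, so p-values measure only the spread between these libraries. Both groups compared are labelled as carrying the eIF4A3 knockdown.

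eIF4A3 is the RNA helicase that anchors the exon junction complex, which splicing leaves on messenger RNA and which acts in export, in translation and in nonsense-mediated decay of transcripts with premature stop codons. Cyclin B1, the product of Ccnb1, binds the kinase CDK1 and drives entry into mitosis. Mouse embryonic stem cells divide rapidly and keep their identity through OCT4, SOX2, NANOG and the naive factors around them, such as KLF4 and ESRRB.

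The control libraries held 5740965 and 8340023 counts in genes, labelled KD 4398141 and 3596615, and labelled KD+Ccnb1 5871830 and 6620504. Reads that did not align made up 40.8% and 45.2% of the reads in labelled KD and 15.7% to 15.9% in the other J1 libraries. Genes with at least 1 count numbered 13217 and 14024 in labelled KD, 17097 and 17237 in control, and 18671 and 18955 in labelled KD+Ccnb1. The libraries of labelled KD also stood further apart, with a median absolute log2 difference of 0.26 between them over the members, against 0.08 in control and 0.07 in labelled KD+Ccnb1. In every comparison with labelled KD, these properties of its libraries and the labelled treatment cannot be told apart. In bulk RNA, fewer cells with a transcript and less of it per cell cannot be told apart either.

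The targeted genes were examined first. Eif4a3 (ENSMUSG00000025580) stood at 77.3 and 88.6 CPM (counts scaled to library size) in control, 71.1 and 35.7 CPM in labelled KD, and 47.4 and 53.6 CPM in labelled KD+Ccnb1. In labelled KD replicate 1 it was thus close to control, and the groups compared overlap. Its log2 fold change, labelled KD+Ccnb1 minus labelled KD as for all fold changes below unless stated, was -0.09 (standard error, SE, 0.39; edgeR adjusted p = 0.889). Without labelled KD replicate 1 it was 0.54 and without replicate 2 it was -0.45, each past the threshold of 0.05, so its direction depended on the library left out. With an offset for GC content and transcript length it was 0.07. Eif4a3 had 135 counts in labelled KD replicate 2 and so was not well counted. It has 3 near-identical copies, of which Gm8994 matched for 1450 bases at 95.6% identity, so its counts are uncertain.

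Ccnb1 (ENSMUSG00000041431) stood at 142 and 137 CPM in the controls, 94.8 and 120 CPM in labelled KD, and 136 and 131 CPM in labelled KD+Ccnb1 (0.31, SE 0.16, edgeR adjusted p = 0.227). It had 5 near-identical copies in the annotation. The copy Ccnb1-ps had 161 and 278 counts in the controls, 111 and 107 in labelled KD, and 1565 and 1872 in labelled KD+Ccnb1, and the copy Gm12856 had 202 and 224 counts in labelled KD+Ccnb1. Gene and both copies together stood at 437 and 448 CPM in labelled KD+Ccnb1, above the 119 and 149 CPM of labelled KD and the 175 CPM of each control library, and where these reads came from was not tested. Cdk1, the kinase partner, stood at 52.8 and 51.6 CPM in labelled KD and 76.0 and 71.5 CPM in labelled KD+Ccnb1, against 87.1 and 74.2 CPM in the controls. The 2 groups did not overlap, but the difference did not pass (0.49, SE 0.15, edgeR adjusted p = 0.0859). With the GC and length offset, Ccnb1 was at -0.21 and Cdk1 at -0.04.

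Over all 13873 genes tested with edgeR, 28.8% were called, 16.9% higher and 11.9% lower in labelled KD+Ccnb1 than in labelled KD, at an adjusted p of 0.05. Of the 3749 well counted genes, 787 rose, 953 fell and 2009 did not pass, with a median log2 fold change of -0.11. The libraries of the 2 groups did not overlap for 1417 members that were higher and 1696 that were lower, against 41.6% and 30.3% of all genes tested. In the 4 fits that each left out 1 library, 458 to 1515 of them were called higher and 404 to 1599 lower. The fits without a labelled KD library gave the high counts (1462 and 1515 higher), because the library left was then given the small spread of labelled KD+Ccnb1. Those without labelled KD+Ccnb1 replicate 1 or 2 gave the low ones (458 and 459 higher).

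The fold change moved with the base composition of the gene. The median GC content of the longest transcript was 48.0% in genes that rose, 53.9% in those that fell and 50.5% in those that did not pass, and the median lengths were 4292, 3002 and 3676 bases. When the members were split into 4 equal groups by GC content, in the lowest group, 308 rose and 98 fell, with a median log2 fold change of 0.29. In the highest group, 97 rose and 378 fell, with a median of -0.51. Between labelled KD and control the same 2 groups had medians of -0.10 and 0.05, and between labelled KD+Ccnb1 and control 0.15 and -0.50. With the GC and length offset, 439 members rose and 1239 fell of 3709 with both properties (26.1% of all genes tested were called), so 26.2% of the calls were higher in place of 45.2%. The median log2 fold change of the members was then -0.37 in place of -0.11, and list values with the offset are to be read beside it. Counts with this offset are therefore given beside each gene group below.

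**Figure D1:**
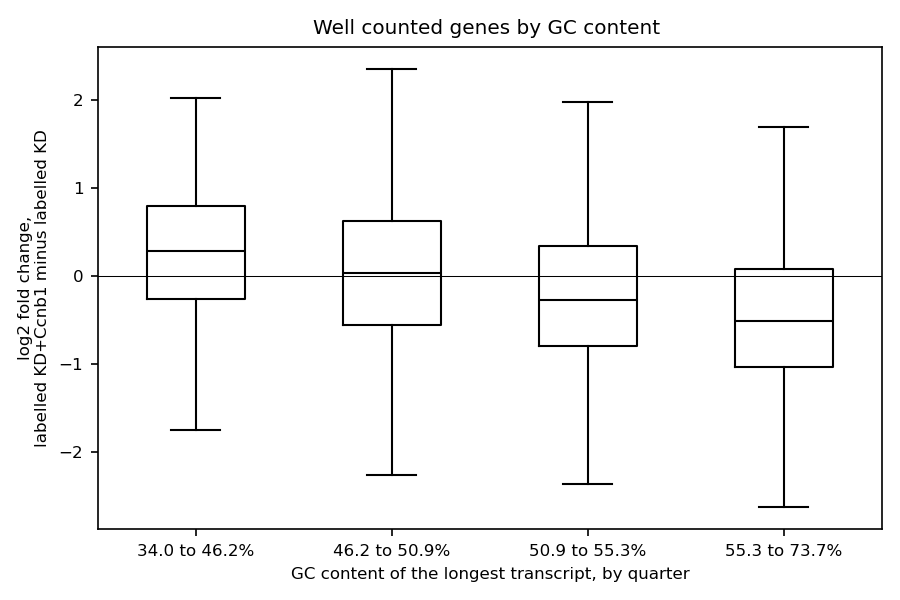
Log2 fold change of the well counted genes (vertical axis) in 4 equal groups by GC content of the longest transcript (horizontal axis). The line in each box is the median, the box spans the middle of the genes and the whiskers reach the furthest gene within 1.5 box lengths. The medians go from 0.29 in the lowest group to -0.51 in the highest.

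Genes of the pluripotent state were mostly higher with Ccnb1. Of 33 well counted genes of core and naive pluripotency, 25 rose, 1 fell and 7 did not pass, with a median log2 fold change of 1.02 (21 and 1, median 0.77, with the GC and length offset). Sox2 (ENSMUSG00000074637), the partner of OCT4 on DNA, stood at 398 and 350 CPM in labelled KD, 1131 and 1160 CPM in labelled KD+Ccnb1, and 1034 and 1031 CPM in the controls (1.61, SE 0.08, edgeR adjusted p = 0.00517). Both labelled KD+Ccnb1 libraries were at or above the control level and far above labelled KD. Nanog (ENSMUSG00000012396) stood at 332 and 263 CPM in labelled KD and 915 and 955 CPM in labelled KD+Ccnb1 (1.64, SE 0.13, edgeR adjusted p = 0.00761). Its labelled KD+Ccnb1 libraries lay above both control libraries, which had 452 and 503 CPM.

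Klf4, a naive pluripotency factor, stood at 112 CPM in both labelled KD libraries, 499 and 537 CPM in labelled KD+Ccnb1, and 328 and 327 CPM in the controls (2.20, SE 0.08, edgeR adjusted p = 0.00435). Tet1, which oxidises methylated cytosine, had the highest fold change of the named members, at 134 and 145 CPM in labelled KD and 1077 and 1087 CPM in labelled KD+Ccnb1 (2.95, SE 0.07, edgeR adjusted p = 0.00435). Control had 201 and 202 CPM of Tet1, so labelled KD+Ccnb1 stood well above both other groups. Pou5f1 (ENSMUSG00000024406), the gene of OCT4, did not follow these genes in size. It stood at 1943 and 1991 CPM in the controls, 888 and 890 CPM in labelled KD, and 1080 and 1053 CPM in labelled KD+Ccnb1 (0.26, SE 0.05, edgeR adjusted p = 0.0317). The call for Pou5f1 was lost without labelled KD+Ccnb1 replicate 1 or 2, with the replicate number as a block, with upper quartile scaling and among genes of at least 10 CPM, while its value with the GC and length offset was 0.62 (edgeR adjusted p = 0.0107).

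The 1 pluripotency gene that fell was Zfp57, a zinc finger gene whose protein keeps methylation at imprinted regions, from 2878 and 3296 CPM to 1181 and 1206 CPM (-1.38, SE 0.08, edgeR adjusted p = 0.00533). Control had 2481 and 2465 CPM of it. With any 1 library left out, 23 to 30 pluripotency members rose and 1 to 2 fell. Of 8 formative and primed genes, 5 rose and 1 fell (4 and 2 with the offset; 2 to 6 rose and 1 to 2 fell without a single library). Spry2, which damps signalling from growth factor receptors, rose by 1.45 (SE 0.17), and Etv4, a target of the same pathway, fell by 1.36 (SE 0.09). The summed level of all 40 pluripotency markers was 21666 and 21848 CPM in the controls, 13221 and 13346 CPM in labelled KD, and 21657 and 21753 CPM in labelled KD+Ccnb1. The markers of the labelled cell type were thus present in all 6 libraries. Near-equal sums do not mean that each gene was back at control. Of the 33 well counted genes, 17 were called higher and 12 lower in labelled KD+Ccnb1 than in control, against 1019 and 1933 of all 3749 well counted genes.

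**Figure D2:**
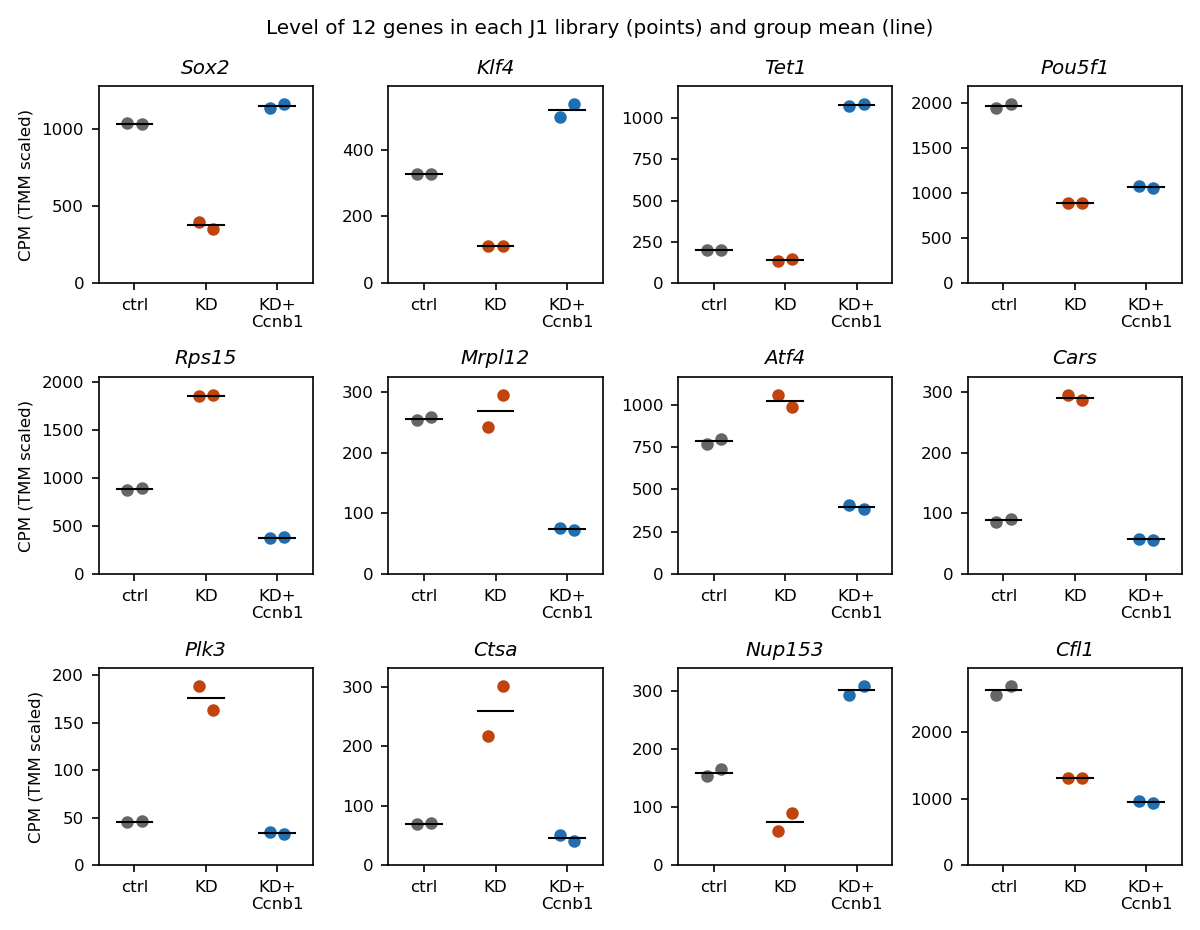
Level of 12 named genes in CPM (vertical axes, each from 0) in the 2 control, 2 labelled KD (KD) and 2 labelled KD+Ccnb1 libraries. Points are libraries and lines are group means. Sox2 and Klf4 were back at or above control in labelled KD+Ccnb1, Pou5f1 stood at 1080 and 1053 CPM between the other groups, and Cfl1 was lowest in labelled KD+Ccnb1.

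The pathway of cyclin B1 itself was examined next. Of 30 well counted genes of cyclin B1-CDK1 and mitosis, 5 rose, a share close to the 16.9% of all genes tested that did, none fell and 25 did not pass in the edgeR fit, with a median of 0.20. The 5 were Ccna2, Espl1, Kif11, Prc1 and Cenpf. With the GC and length offset 3 rose and 8 fell (median -0.23). The sign of the list median thus turned, while the median of all well counted genes moved from -0.11 to -0.37. Ccna2, the gene of cyclin A2, stood at 116 and 67.5 CPM in labelled KD, 254 and 280 CPM in labelled KD+Ccnb1, and 216 and 210 CPM in the controls (1.53, SE 0.29, edgeR adjusted p = 0.0319; 0.0791 with the offset). Its groups did not overlap, and the 2 labelled KD libraries were wide apart. Espl1, which encodes separase, the protease that opens cohesin rings at anaphase, rose from 76.9 and 115 CPM to 273 and 277 CPM (1.51, SE 0.22, edgeR adjusted p = 0.0212). In fits lacking 1 library, 2 to 16 mitosis genes rose and 0 to 6 fell.

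Of 13 condensin and cohesin genes, whose products fold and hold chromosomes, 5 rose and 1 fell (median 0.65). With the offset 1 rose and 4 fell (median -0.27), and the median GC content of these members was 41.9%. When each library was left out in turn, 4 to 9 rose and 0 to 3 fell. Rad21, the cohesin subunit that separase cuts, rose from 98.5 and 134 CPM to 467 and 468 CPM (2.00, SE 0.17, edgeR adjusted p = 0.00869; 1.37 with the offset, adjusted p = 0.0119). Smc2 of condensin rose by 1.64 (SE 0.15), and its call was lost with the offset (0.71, edgeR adjusted p = 0.0521). The others that rose were Smc3, Wapl and Esco2, and Ncaph2 fell.

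Of 28 well counted G1/S and DNA replication genes, 10 rose and 7 fell (7 and 6 with the offset). Rrm2, a subunit of the reductase that makes deoxynucleotides, stood at 90.6 and 76.8 CPM in labelled KD, 224 and 237 CPM in labelled KD+Ccnb1, and 218 and 231 CPM in the controls (1.45, SE 0.13, edgeR adjusted p = 0.00864). Labelled KD+Ccnb1 thus lay within a few CPM of control. Rfc2 of the clamp loader fell by 1.59 (SE 0.10), to 79.9 and 73.0 CPM, below the 132 and 144 CPM of control. Reads of Rfc2 are uncertain because its transcript overlaps Lat2. Without a single library, 2 to 14 of this list rose and 3 to 11 fell.

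Among genes that p53 activates, more fell than rose, as among all 3749 well counted genes, where 953 fell and 787 rose. Of 27 well counted p53 targets, 2 rose, 13 fell and 12 did not pass (median -0.41), and with the offset 2 rose and 10 fell (median -0.42). The median was -0.45 to -0.41 without 1 labelled KD library and -0.41 to -0.29 without 1 labelled KD+Ccnb1 library. How many were called depended on which group was left with 1 library. Plk3, a stress-response kinase, stood at 189 and 164 CPM in labelled KD, 34.9 and 33.2 CPM in labelled KD+Ccnb1, and 45.3 and 46.2 CPM in the controls (-2.39, SE 0.14, edgeR adjusted p = 0.00533). Pidd1, which builds a caspase-activating platform, fell from 445 and 423 CPM to 105 and 99.8 CPM (-2.10, SE 0.08, edgeR adjusted p = 0.00435). Both ended below control in labelled KD+Ccnb1.

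Mdm2 and Cdkn1a fell too and stayed above control. Mdm2, which encodes the ubiquitin ligase that keeps p53 low, stood at 918 and 988 CPM in labelled KD, 533 and 502 CPM in labelled KD+Ccnb1, and 319 and 309 CPM in the controls (-0.89, SE 0.07, edgeR adjusted p = 0.00747; -1.34 with the offset). Cdkn1a, the inhibitor p21 of cyclin-dependent kinases, stood at 185 and 161, 96.6 and 108, and 39.8 and 41.5 CPM in the same order (-0.76, SE 0.13, edgeR adjusted p = 0.0285; -0.58 with the offset, where the call was lost at an adjusted p of 0.0531). Against control, 13.2% of all genes tested were called in labelled KD and 62.1% in labelled KD+Ccnb1. Of the 27 p53 targets, 19 were higher in labelled KD than in control (5.56% of all genes tested). In labelled KD+Ccnb1, 18 were higher than in control (31.4% of all genes tested). Of the 3749 well counted genes, 455 and 1019 were higher in these 2 comparisons. The 2 comparisons share the control libraries, so they are given side by side only.

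The 2 p53 targets that rose were Ccng1 and Tigar. Ccng1, an atypical cyclin, stood at 234 and 217 CPM in the controls, 530 and 497 CPM in labelled KD, and 640 and 645 CPM in labelled KD+Ccnb1 (0.32, SE 0.06, edgeR adjusted p = 0.0340). With the offset it was at -0.42 (edgeR adjusted p = 0.0432), so its direction turned, and the call was lost without labelled KD+Ccnb1 replicate 1 or 2. Of 9 apoptosis regulators, none rose and 2 fell in the edgeR fit (1 and 2 with the offset), and these were Bax at -0.94 (SE 0.11) and Bbc3 at -0.90 (SE 0.11), 2 promoters of cell death that are also p53 targets. Both calls were lost with the offset (-0.38 and -0.37, edgeR adjusted p = 0.0751 and 0.0789) and without labelled KD+Ccnb1 replicate 1, and that of Bbc3 also without replicate 2. Of this list, 0 to 1 fell without a labelled KD+Ccnb1 library, and 4 to 5 fell and 2 to 3 rose without a labelled KD library.

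**Figure D3:**
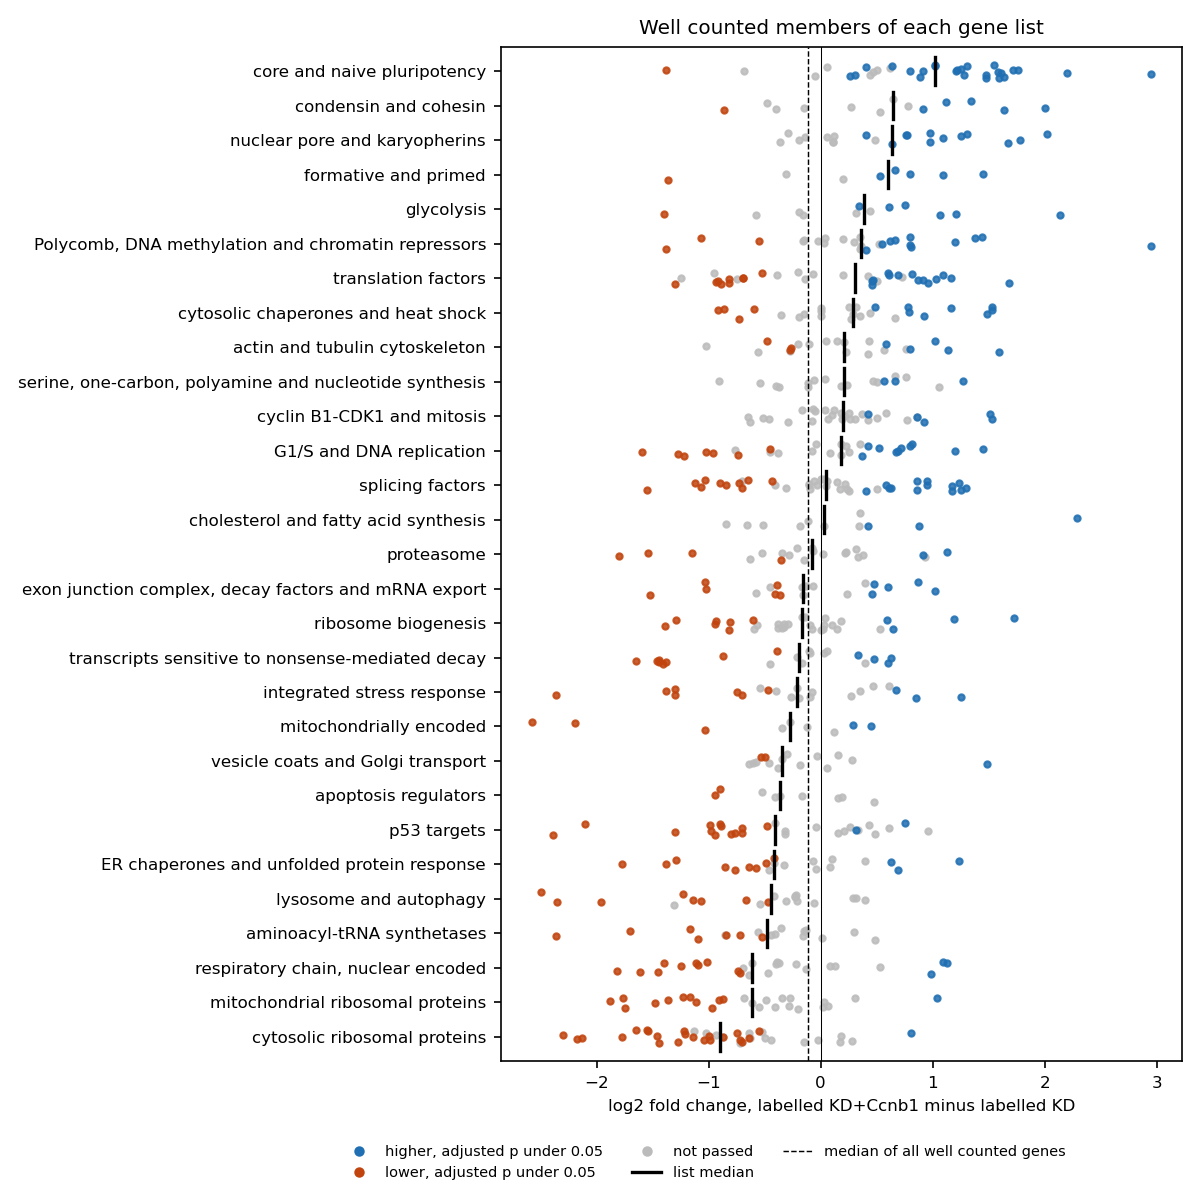
Log2 fold change (horizontal axis) of the well counted members of each gene list with at least 8 of them (rows, ordered by median). Each point is a gene, coloured by its edgeR call; the thick line is the list median and the dashed line the median of all well counted genes, -0.11. Pluripotency is at the top with a median of 1.02 and cytosolic ribosomal proteins at the bottom with -0.90.

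Genes of the integrated stress response, which cells switch on through the factor ATF4 when initiation of translation is curbed, moved in both directions. Of 21 well counted genes, 3 rose and 7 fell (median -0.21; 3 and 10 with the offset, median -0.43). Atf4 itself fell from 1058 and 988 CPM to 408 and 384 CPM, below the 769 and 800 CPM of control (-1.38, SE 0.07, edgeR adjusted p = 0.00517). The 3 that rose were the amino acid transporter genes Slc7a5 and Slc7a1, and Xpot, whose product exports transfer RNA. In fits lacking 1 library, 2 to 6 rose and 4 to 11 fell.

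Aminoacyl-tRNA synthetases load transfer RNAs with their amino acids, and several of their genes are known targets of ATF4. None of the 18 well counted members rose and 7 fell, with 11 not passing in the edgeR fit (median -0.48; 0 and 11 with the offset, median -0.93). At an adjusted p of 0.05, 0 to 2 rose and 4 to 14 fell without a single library. Cars, the cysteine enzyme, stood at 295 and 286 CPM in labelled KD, 57.4 and 56.5 CPM in labelled KD+Ccnb1, and 85.2 and 91.1 CPM in the controls (-2.36, SE 0.09, edgeR adjusted p = 0.00435). Sars, the serine enzyme, fell from 310 and 184 CPM to 80.6 and 72.8 CPM (-1.70, SE 0.29, edgeR adjusted p = 0.0284). The others that fell were Yars, Mars, Lars, Aars and Kars. Against control, 15 of the 18 were lower in labelled KD+Ccnb1, where 30.7% of all genes tested were lower. Among the 3749 well counted genes, 1933 were lower in that comparison.

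The sequence that ATF4 binds with its C/EBP partners was searched in the promoters of these genes as TGATGNAA, on both strands, from 250 bases before to 50 after the start site in RefSeq's table (build GRCm38.p6). Of the 18 synthetase genes 11 had an entry, and 5 of these (45.5%) held a match. Matches were found in 4.51% of all genes of the table and in 2.13% of the 2866 well counted genes with an entry, including 1.76% of those that rose and 2.08% of those that fell. Of the 16 integrated stress response genes with an entry, 2 held a match. The 100 bases from 80 before to 20 after the start are shown for 2 synthetase genes that fell (Aars, Yars), 3 that did not pass (Gars, Iars, Tars), and the asparagine synthetase gene Asns, the classical ATF4 target. All 6 hold a match, so they show the same letters beside different outcomes. Capitals mark the match. The windows lie at chr8:111033762-111033861 (plus strand, Aars), chr4:129189823-129189922 (plus, Yars), chr6:55037921-55038020 (plus, Gars), chr13:49682050-49682149 (plus, Iars), chr15:11399639-11399738 (minus, Tars) and chr6:7693190-7693289 (minus, Asns). They read:
Aars: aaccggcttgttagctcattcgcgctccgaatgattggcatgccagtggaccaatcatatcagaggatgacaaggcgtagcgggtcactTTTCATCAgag
Yars: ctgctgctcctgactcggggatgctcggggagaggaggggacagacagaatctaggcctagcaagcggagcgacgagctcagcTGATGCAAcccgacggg
Gars: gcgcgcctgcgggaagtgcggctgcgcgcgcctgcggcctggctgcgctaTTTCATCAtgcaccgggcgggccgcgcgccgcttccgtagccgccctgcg
Iars: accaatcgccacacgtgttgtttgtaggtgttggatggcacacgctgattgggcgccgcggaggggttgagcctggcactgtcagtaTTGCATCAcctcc
Tars: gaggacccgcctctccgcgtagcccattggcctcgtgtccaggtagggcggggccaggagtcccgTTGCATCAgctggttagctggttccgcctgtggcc
Asns: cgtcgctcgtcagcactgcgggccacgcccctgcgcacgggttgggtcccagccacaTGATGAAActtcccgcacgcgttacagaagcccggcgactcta

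Promoters with a match went with different outcomes. Aars stood at 790 and 828 CPM in labelled KD and 506 and 482 CPM in labelled KD+Ccnb1 (-0.72, SE 0.06, edgeR adjusted p = 0.00869). Yars stood at 324 and 218 CPM and at 124 and 117 CPM (-1.17, SE 0.22, edgeR adjusted p = 0.0317). Asns stood at 207 and 202 CPM and at 183 and 179 CPM (-0.19, SE 0.08, edgeR adjusted p = 0.168; -0.48 with the offset, where it passed at an adjusted p of 0.0351), with 174 and 159 CPM in the controls. The 3 other synthetase genes did not pass, with Gars at -0.44, Tars at -0.41 and Iars at 0.49. With the offset Tars passed (-0.96, edgeR adjusted p = 0.0128) and Iars was at -0.01. Aars also held a match 112 bases before its start, outside the window. A match is a description of the letters and was not tested as a site.

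Of 20 genes of endoplasmic reticulum chaperones and the unfolded protein response, 3 rose and 9 fell (median -0.42; 0 and 11 with the offset). Hspa5, the main chaperone of that compartment, fell from 1176 and 1163 CPM to 702 and 684 CPM, below the 1108 and 1106 CPM of control (-0.76, SE 0.05, edgeR adjusted p = 0.00543; -1.32 with the offset). Subunits of the translocon-associated complex went apart, with Ssr2 at -1.77 (SE 0.07) and Ssr3 at 1.24 (SE 0.16), a call lost with the offset (0.55, edgeR adjusted p = 0.122). Sel1l and Ssr1 were the others that rose. When each library was left out in turn, 1 to 5 of the list rose and 6 to 12 fell. Of 25 cytosolic chaperones and heat shock genes, 8 rose and 4 fell (median 0.29; 5 and 7 with the offset, median -0.04; 5 to 16 rose and 0 to 7 fell without a single library). Cct5 of the chaperonin for tubulin and actin rose from 134 and 110 CPM to 354 and 358 CPM, against 270 and 272 CPM in the controls (1.53, SE 0.13, edgeR adjusted p = 0.00794). Hsp90aa1 rose by 1.53 (SE 0.10; 0.94 with the offset), and its counts are uncertain because of 4 near-identical copies. Those that fell were Hsf1, Hspa8, Hspd1 and Hspe1.

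Ribosomal protein genes had the lowest median among lists with at least 8 well counted members. Of 38 well counted cytosolic ribosomal protein genes, 22 fell, 1 rose and 15 did not pass (median -0.90; 25 and 0 with the offset, median -1.04). Rps15 stood at 1850 and 1864 CPM in labelled KD, 376 and 383 CPM in labelled KD+Ccnb1, and 879 and 895 CPM in the controls (-2.30, SE 0.05, edgeR adjusted p = 0.00435). Rpl14 fell from 1151 and 1185 CPM to 267 and 254 CPM, against 842 CPM in each control library (-2.17, SE 0.06, edgeR adjusted p = 0.00435). Labelled KD+Ccnb1 was the lowest group in both. Against control, 37 of the 38 were lower in labelled KD+Ccnb1 (median -1.01), where 1933 of the 3749 well counted genes were lower (median -0.23). In labelled KD against control, 8 were higher and 2 lower (median 0.06), where 455 well counted genes were higher and 648 lower. The 1 that rose was Rpl15. Ribosomal protein genes are known for near-identical pseudogenes, which make their counts uncertain, such as 5 copies for Rps15 and 1 for Rpl14. Without a single library, 14 to 32 fell and 0 to 3 rose.

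More nuclear genes of mitochondrial translation and respiration fell than rose, where 953 of all 3749 well counted genes fell and 787 rose. Of 25 mitochondrial ribosomal protein genes, 11 fell and 1, Mrps2, rose (median -0.61; 11 and 1 with the offset). Mrpl12 stood at 242 and 295 CPM in labelled KD, 75.1 and 71.8 CPM in labelled KD+Ccnb1, and 254 and 258 CPM in the controls (-1.88, SE 0.14, edgeR adjusted p = 0.00686), so only labelled KD+Ccnb1 was low. Mrpl45 fell by 1.76 (SE 0.14). Of 25 nuclear genes of the respiratory chain, 10 fell and 3 rose (median -0.61; 10 and 3 with the offset). Ndufa10 of complex I fell from 247 and 277 CPM to 79.2 and 69.7 CPM, below the 165 and 193 CPM of control (-1.82, SE 0.12, edgeR adjusted p = 0.00593). The 3 that rose were Sdha and the ATP synthase genes Atp5a1 and Atp5b, while Atp5d of the same enzyme fell. Atp5b stood at 398 and 405 CPM in labelled KD, 877 and 884 CPM in labelled KD+Ccnb1, and 856 and 854 CPM in the controls (1.13, SE 0.05, edgeR adjusted p = 0.00510). With any 1 library left out, 5 to 17 mitochondrial ribosomal genes and 3 to 17 respiratory genes fell, and 1 to 3 and 2 to 5 rose.

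Of 9 genes encoded in mitochondrial DNA, 2 rose and 3 fell, and with the offset all 9 fell. The 3 were mt-Rnr1, mt-Rnr2 and mt-Nd4, of which the first pair are the ribosomal RNAs of mitochondria. The ribosomal RNA mt-Rnr1 stood at 2297 and 2643 CPM in labelled KD, 414 and 416 CPM in labelled KD+Ccnb1, and 1170 and 1125 CPM in the controls (-2.58, SE 0.09, edgeR adjusted p = 0.00435). mt-Rnr2 stood at 4292 and 3953 CPM, 913 and 905 CPM, and 1632 and 1620 CPM in the same order (-2.19, SE 0.06). Labelled knockdown was thus the highest and labelled KD+Ccnb1 the lowest group in both. The 2 that rose were mt-Nd5, at 0.45, and mt-Co1, at 0.29. In fits lacking 1 library, 2 to 3 rose and 4 to 6 fell.

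Of 34 translation factors, 14 rose and 9 fell (median 0.31; 7 and 9 with the offset, median 0.01). Subunits of eIF3, the scaffold of initiation, went apart. Eif3a rose from 299 and 262 CPM to 921 and 890 CPM, above the 339 and 403 CPM of control (1.68, SE 0.09, edgeR adjusted p = 0.00517; 0.94 with the offset), while Eif3d, Eif3g and Eif3i fell (-0.82, -0.82 and -0.89). The call for Eif3g was lost with the offset (-0.55, edgeR adjusted p = 0.0626). Eif4ebp1, whose product inhibits cap-dependent translation, fell by 1.30 (SE 0.11). Of 31 ribosome biogenesis genes, 4 rose and 7 fell (median -0.17; 2 and 12 with the offset), with Urb2 at 1.73 (SE 0.11; 1.12 with the offset) and Rrp1 at -1.39 (SE 0.08). Ncl, Rrs1 and Nip7 were the others that rose. When each library was left out in turn, 10 to 19 translation factors and 3 to 8 biogenesis genes rose, and 3 to 13 and 5 to 15 fell.

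The processes in which eIF4A3 acts showed changes in both directions, as did the members as a whole. Of all 3749 well counted genes, 787 rose and 953 fell, and with the offset 439 and 1239 of 3709. Of 19 genes of the exon junction complex, decay factors and mRNA export, 5 rose and 6 fell (0 and 6 with the offset). Upf3a, a decay factor whose protein joins the exon junction complex to the UPF proteins, stood at 163 and 189 CPM in labelled KD, 57.8 and 65.6 CPM in labelled KD+Ccnb1, and 110 and 116 CPM in the controls (-1.52, SE 0.14, edgeR adjusted p = 0.00972). Ncbp1 of the cap-binding complex fell by 1.03 (SE 0.15) and lost its call without labelled KD+Ccnb1 replicate 1 or 2. The 5 that rose were Ncbp2, Thoc2, Upf2, Smg1 and Pnn. Without a single library, 0 to 7 rose and 2 to 9 fell.

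Of 20 transcripts known as targets of nonsense-mediated decay, 4 rose and 8 fell (median -0.19), and with the offset 0 rose and 12 fell (median -0.68). Rps9 and Rpl10a, ribosomal protein genes with decay-sensitive isoforms, fell by 1.65 (SE 0.07) and 1.46 (SE 0.06). Counts per gene do not separate such isoforms from the main transcript. The 4 that rose were Srsf2, Upf2, Smg1 and Hnrnpdl. With any 1 library left out, 1 to 7 rose and 5 to 11 fell. Of 41 splicing factors, 13 rose and 10 fell, and with the offset 3 and 18. Prpf19, a ubiquitin ligase of the spliceosome, fell by 1.55 (SE 0.13). Srsf5 rose by 1.30 (SE 0.12), a call lost with the offset (0.54, edgeR adjusted p = 0.0772). In fits lacking 1 library, 11 to 21 splicing factors rose and 4 to 15 fell.

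Of 21 nuclear pore and karyopherin genes, whose products carry cargo through the nuclear envelope, 12 rose and none fell in the edgeR fit, with 9 not passing (median 0.64). With the offset 3 rose and 2 fell (median -0.10), and the median GC content of the members was 45.9%. Nup153 stood at 58.3 and 90.0 CPM in labelled KD, 294 and 309 CPM in labelled KD+Ccnb1, and 154 and 165 CPM in the controls (2.02, SE 0.24, edgeR adjusted p = 0.0143; 1.29 with the offset, adjusted p = 0.0279). Ranbp2 rose by 1.78 (SE 0.37), a call lost with the offset (0.78, edgeR adjusted p = 0.220), and it has 11 near-identical copies. When each library was left out in turn, 8 to 15 rose and 0 to 2 fell. Of 25 genes of Polycomb, DNA methylation and chromatin repression, 11 rose and 3 fell (median 0.36; 8 and 4 with the offset; 8 to 18 rose and 1 to 4 fell without a single library). Tet2, a relative of Tet1, stood at 318 and 322 CPM in labelled KD, 873 and 876 CPM in labelled KD+Ccnb1, and 324 and 343 CPM in the controls (1.44, SE 0.06, edgeR adjusted p = 0.00435; 0.68 with the offset, adjusted p = 0.00935). Only labelled KD+Ccnb1 was high. The 3 that fell were Zfp57, Ehmt2 and Mbd3.

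Most of the metabolic genes called in the edgeR fit were higher, where 787 of all well counted genes rose and 953 fell. With the offset this held for glycolysis, while the other metabolic lists were near even. Of 12 glycolysis genes, 6 rose and 1, Gapdh, fell (4 and 1 with the offset; 3 to 8 rose and 0 to 3 fell without a single library). Ldha, the gene of lactate dehydrogenase A, stood at 144 and 55.3 CPM in labelled KD, 446 and 441 CPM in labelled KD+Ccnb1, and 852 and 912 CPM in the controls (2.14, SE 0.48, edgeR adjusted p = 0.0426). The 2 labelled KD libraries differed by more than the 2 of any other group, and Ldha and Gapdh have 13 and 113 near-identical copies. The call for Gapdh (-1.40, edgeR adjusted p = 0.0493) was lost without labelled KD+Ccnb1 replicate 1 or 2. Of 11 cholesterol and fatty acid synthesis genes, 3 rose and none fell in the edgeR fit (3 and 2 with the offset; 1 to 6 rose and 0 to 3 fell without a single library). Scd2, a fatty acid desaturase gene, rose from 88.2 and 74.4 CPM to 417 and 384 CPM, close to the 436 and 452 CPM of control (2.29, SE 0.12, edgeR adjusted p = 0.00517). The others were Srebf2 and Elovl6, and the call for Srebf2 was lost without labelled KD+Ccnb1 replicate 1 or 2.

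Of 18 genes of serine, one-carbon, polyamine and nucleotide synthesis, 3 rose (Pfas, Cad and Atic) and none fell in the edgeR fit (2 and 2 with the offset; 2 to 9 rose and 0 to 4 fell without a single library). Pfas, an enzyme of purine synthesis, stood at 106 and 96.1 CPM in labelled KD, 255 and 235 CPM in labelled KD+Ccnb1, and 245 and 244 CPM in the controls (1.27, SE 0.11, edgeR adjusted p = 0.00828; 0.83 with the offset). The call for Cad (0.66, SE 0.11) was lost without labelled KD+Ccnb1 replicate 1 or 2. Labelled KD+Ccnb1 and control overlapped for both Pfas and Cad. The share of this list that rose was close to the 16.9% of all genes tested.

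Of 20 lysosome and autophagy genes, none rose and 8 fell, with 12 not passing in the edgeR fit (median -0.44; 0 and 9 with the offset). Ctsa, a lysosomal protease gene, stood at 217 and 302 CPM in labelled KD, 50.6 and 41.3 CPM in labelled KD+Ccnb1, and 68.6 and 71.2 CPM in the controls (-2.50, SE 0.23, edgeR adjusted p = 0.00940). Hexa, which degrades gangliosides, fell from 162 and 212 CPM to 35.6 and 38.0 CPM, against 23.1 and 22.0 CPM in the controls (-2.35, SE 0.18, edgeR adjusted p = 0.00747). Both were highest in labelled KD. Without a single library, 5 to 15 of the list fell and 0 to 4 rose. Of 21 proteasome genes, 2 rose (Psme3 and Psmd1) and 4 fell (1 and 5 with the offset; 1 to 8 rose and 3 to 7 fell without a single library), with Psmd4 at -1.80 (SE 0.09) and Psmb6 at -1.54 (SE 0.10).

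Of 21 actin and tubulin cytoskeleton genes, 5 rose and 3 fell (5 and 2 with the offset; 3 to 12 rose and 2 to 6 fell without a single library). Tubb5, a beta-tubulin gene, stood at 1720 and 1665 CPM in labelled KD, 3467 and 3427 CPM in labelled KD+Ccnb1, and 3885 and 4064 CPM in the controls (1.02, SE 0.04, edgeR adjusted p = 0.00435). Ezr, which links actin to the membrane, rose by 1.59 (SE 0.26). Myh9, a non-muscle myosin gene, rose by 1.14 (SE 0.23) and lost its call with the offset (0.97, edgeR adjusted p = 0.0541). The 3 that fell were Cfl1, Actb and Tubb4b. Of 15 genes of vesicle coats and Golgi transport, 1, Arcn1, rose by 1.49 (SE 0.12; 0.82 with the offset) and 2, Sec24b and Golgb1, fell (1 and 8 with the offset; 1 to 4 rose and 0 to 10 fell without a single library). The call for Sec24b (-0.53, edgeR adjusted p = 0.0492; -1.02 with the offset) was lost without labelled KD+Ccnb1 replicate 1 or 2.

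Outside the lists, some of the highest and lowest members moved past control and others to it. Prrc2c, an RNA-binding protein gene, stood at 87.8 and 83.4 CPM in labelled KD, 576 and 592 CPM in labelled KD+Ccnb1, and 119 and 126 CPM in the controls (2.76, SE 0.08, edgeR adjusted p = 0.00435). Ep300, a histone acetyltransferase gene, stood at 70.3 and 74.4, 348 and 340, and 144 and 145 CPM in the same order (2.24, SE 0.09, edgeR adjusted p = 0.00435), and Tjp1 of tight junctions at 45.9 and 53.2, 247 and 258, and 77.9 and 64.9 CPM (2.34, SE 0.12, edgeR adjusted p = 0.00517). All 3 were highest in labelled KD+Ccnb1. Sgk1, a kinase gene, rose from 48.7 and 55.1 CPM to 216 and 234 CPM, under the 296 and 329 CPM of control (2.11, SE 0.12, edgeR adjusted p = 0.00533). Irf2bpl rose by 2.18 (SE 0.34) and Eno1b by 2.65 (SE 0.08), and Eno1b shares 1652 bases at 99.5% identity with Eno1, so reads of these 2 cannot be told apart.

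Among the lowest, several genes were high in labelled KD only. Cpt1c, a carnitine palmitoyltransferase gene, stood at 505 and 431 CPM in labelled KD, 53.5 and 52.4 CPM in labelled KD+Ccnb1, and 70.7 and 73.2 CPM in the controls (-3.15, SE 0.12, edgeR adjusted p = 0.00435). Hmcn2 was at -3.15 (SE 0.19), Gpx3 at -2.80 (SE 0.10), Atp9a at -2.72 (SE 0.15) and Eng, a co-receptor for transforming growth factor beta, at -2.62 (SE 0.08), all called lower. Each of these 5 ended within 1 log2 unit of control. P2rx7, an ATP-gated channel gene, fell from 712 and 746 CPM to 94.7 and 82.4 CPM but stayed above the 12.3 and 17.7 CPM of control (-3.05, SE 0.10, edgeR adjusted p = 0.00435).

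Other members of the lowest 10 ended below control. Lars2, the mitochondrial leucine synthetase gene, stood at 3789 and 4448 CPM in labelled KD, 493 and 606 CPM in labelled KD+Ccnb1, and 2588 and 2149 CPM in the controls (-2.91, SE 0.15, edgeR adjusted p = 0.00517). Its transcript shares 72 bases at 98.6% identity with Gm15564 and 97 bases at 94.8% with AA474408, so its counts are uncertain. Selenow, a selenoprotein gene, fell from 271 and 257 CPM to 43.3 and 36.2 CPM (-2.74, SE 0.13, edgeR adjusted p = 0.00510), and labelled KD+Ccnb1 minus control was -1.81 for it (edgeR adjusted p = 7.4e-15). Adrb3, an adrenergic receptor gene, fell by 2.68 (SE 0.16) and shares 481 identical bases with Gm45470.

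How far genes returned was measured as a percentage, where 0 is the labelled KD level and 100 the control level on the log2 scale. It was computed for members called between labelled KD and control with a difference of at least 1 log2 unit, and is a description with no test. Both differences use the labelled KD libraries, so an error in their level enters both and by itself moves the value toward 100. Of all genes tested, 7.66% were lower in labelled KD than in control. Of 326 such members lower in labelled KD than in control, 117 (35.9%) were back at control, within 25 points of 100, and 40 (12.3%) beyond it. Another 115 (35.3%) had come part way, at 25 to 75%, 49 (15.0%) stayed near labelled KD, between -25 and 25%, and 5 (1.53%) stood further away, below -25%. The median was 72.1%. Of 241 genes higher in labelled KD, 92 (38.2%) were back at control, 48 (19.9%) beyond, 72 (29.9%) part way, 22 (9.13%) near labelled KD and 7 (2.90%) further away, with a median of 85.4%.

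With the GC and length offset, 83 genes that had been lower and 222 that had been higher were back at control or beyond, in place of 157 and 140. Being back in this sense did not mean that no difference was left. In the comparison of labelled KD+Ccnb1 with control, which does not use labelled KD, 17 of the 117 genes back from below were still called higher and 59 lower, and 41 did not pass. Of the 92 back from above, 7 were called higher and 17 lower, and 68 did not pass.

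**Figure D4:**
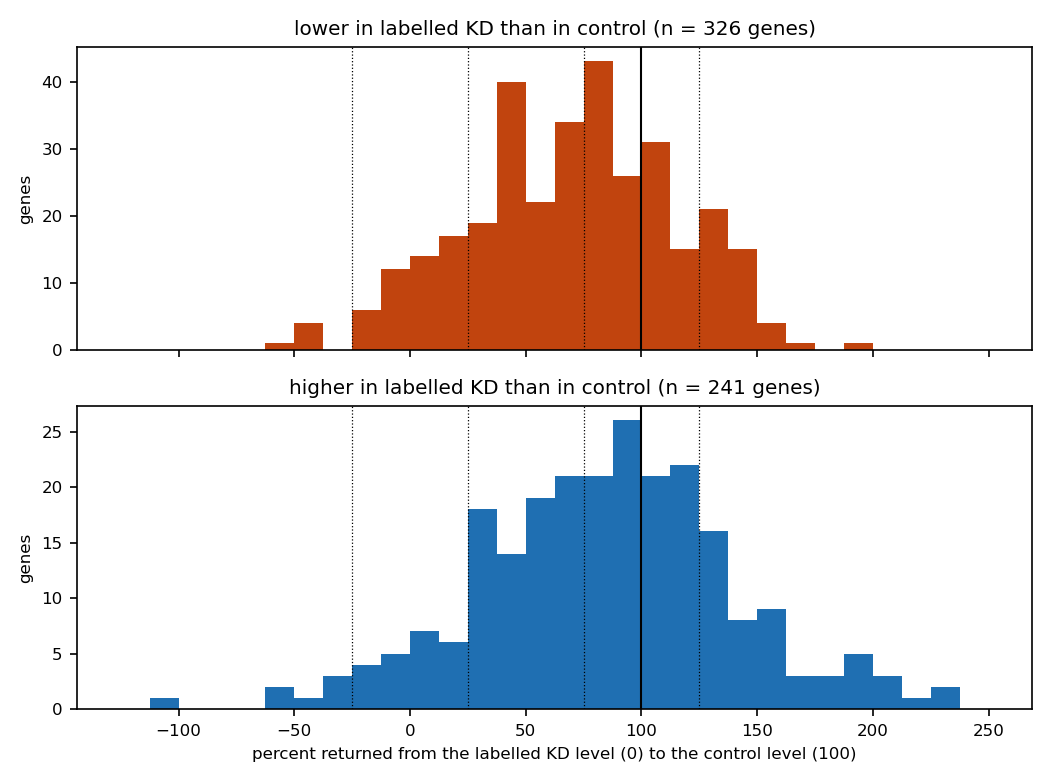
Number of well counted genes (vertical axis) by the percentage returned from the labelled KD level (0) to the control level (100, solid line), for 326 genes lower (top) and 241 higher (bottom) in labelled KD than in control. Dotted lines mark the limits between the classes; the medians were 72.1% and 85.4%.

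The most abundant genes of each class show what these classes hold. Back at control stood Tubb5 (83.3%), the Polycomb gene Phc1 (76.5%) and Apoe (108%), a lipid carrier gene. Phc1 stood at 2111 and 2097 CPM in labelled KD, 1109 and 1106 CPM in labelled KD+Ccnb1, and 910 and 909 CPM in the controls. Apoe stood at 2258 and 2068, 752 and 723, and 790 and 810 CPM in the same order, so its 2 labelled KD+Ccnb1 libraries lay just under control. Beyond control were mt-Rnr1 (233%), Rps15 (215%) and mt-Rnr2 (163%).

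Part way came Ybx1 (62.5%), Ywhae (54.7%) and Utf1 (42.3%). Utf1, a chromatin protein gene of the pluripotent state, stood at 325 and 366 CPM in labelled KD, 642 and 644 CPM in labelled KD+Ccnb1, and 1523 and 1483 CPM in the controls (0.89, SE 0.08, edgeR adjusted p = 0.00995; 1.43 with the offset). Ybx1, with 5 near-identical copies, stood at 407 and 635, 984 and 985, and 1463 and 1466 CPM and did not pass (0.91, SE 0.23, edgeR adjusted p = 0.0566). It passed with the offset (0.96, edgeR adjusted p = 0.0427), in 1 fit over the 6 libraries and among genes of at least 10 CPM. With upper quartile scaling, DESeq2 size factors or no filter it did not pass. Ywhae rose by 0.60 (SE 0.13) and lost its call with the offset (0.07, edgeR adjusted p = 0.668).

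Near the labelled KD level stayed Fscn1 (24.9%), Pou5f1 (23.0%) and Eif5a (15.3%). Eif5a, a translation elongation factor gene with 3 near-identical copies, stood at 773 and 645 CPM in labelled KD, 833 and 800 CPM in labelled KD+Ccnb1, and 1819 CPM in each control library (0.20, SE 0.11, edgeR adjusted p = 0.252; 0.42 with the offset). Fscn1, which bundles actin, stood at 574 and 539, 683 and 699, and 1323 and 1332 CPM in the same order. Its rise of 0.30 (SE 0.06, edgeR adjusted p = 0.0363) was not called without labelled KD+Ccnb1 replicate 1 or 2. With the offset it was 0.68 (edgeR adjusted p = 0.0122), and its return lies at the limit of the class.

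Further away stood Cfl1 (-47.6%), Hsd17b14 (-47.8%) and Ccng1 (-27.3%). Cfl1, the gene of the actin-severing protein cofilin, stood at 2572 and 2703 CPM in the controls, 1316 and 1319 CPM in labelled KD, and 961 and 933 CPM in labelled KD+Ccnb1 (-0.48, SE 0.05, edgeR adjusted p = 0.0100). The 3 groups did not overlap and labelled KD+Ccnb1 was the lowest. Hsd17b14, a steroid dehydrogenase gene, stood at 402 and 380, 157 and 151, and 101 and 95.6 CPM in the same order (-0.65, SE 0.10, edgeR adjusted p = 0.0244). Its call was lost with the offset (-0.33, edgeR adjusted p = 0.112) and without labelled KD+Ccnb1 replicate 1 or 2.

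Seen by list, 10 of 14 pluripotency genes with such a start were back at control or beyond, with a median of 95.5%. Of 14 p53 targets 2 were, with a median of 47.5%, and of 8 cytosolic chaperone genes 5 were, with a median of 78.2%. Of 8 G1/S and replication genes 3 were, with a median of 53.9%, among them Rrm2 at 103%, and of 7 cytoskeleton genes 2 were, with a median of 36.7%. These shares were not compared by a test, and they are given without the GC and length offset. Over all members, the offset changed the genes back at control or beyond from 157 to 83 from below. From above it changed them from 140 to 222.

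At the limit of 200 counts, the members just inside were Eif1ax (0.93), Rnmt (1.11) and Wipf2 (0.82), and the genes just outside, at 199 counts, were B3gntl1 (-1.53), Ing4 (-0.18) and Kmt2c (1.14). Of the 10124 genes tested that were not well counted, 1556 were called higher and 701 lower. Among them 635 had no count in either labelled KD library, and all 635 were called higher. A gene of this kind passed the filter only through labelled KD+Ccnb1, so it is not described here.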

How the data were processed

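Poly-A RNA libraries were sequenced from J1 cells, 2 libraries in each of 3 groups. The deposited values are whole-number counts of reads by Ensembl gene ID. The 5 summary rows of each file stayed out of library sizes and tests. Per the submitters' processing notes, HTSeq 0.11.2, Bowtie2 2.3.4.3, edgeR 3.26.8 and SAMtools 1.9 were used with build mm9, without their roles, settings or strand handling, so overlapping and antisense genes are uncertain. The 2 libraries of the CCE line were not used here.

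Symbols were matched by gene ID for 32620 of 37310 genes. Length and GC content of the longest transcript came from GENCODE M21. Each comparison was fitted on its 4 libraries with edgeR 4.0.16 in R 4.3.3, using its quasi-likelihood test (TMM scaling, filterByExpr, two-sided, no covariate) and adjusted by Benjamini-Hochberg over all genes tested. The script was tested on simulated data with the measured spread of each group. It called 21% of 100 genes changed 2-fold and 60% of 100 genes changed 4-fold. Of the unchanged genes 0 were called, though 8.24% had an edgeR p under 0.05 before adjustment. A gene that did not pass can thus still differ. SE is the size of the log2 fold change divided by √F. Levels are CPM after TMM scaling over the 6 J1 libraries; they are not per length, so levels of different genes are not compared. Return was computed on mean log2 CPM with a prior count of 2. Copies are genes whose transcripts matched for 300 or more bases at 90% identity (BLAST 2.17.0). Named genes with copies but not marked above were Arcn1, Ccna2, Cfl1, Ctsa, Eif4ebp1, Irf2bpl, Mrpl12, Mrpl45, Prpf19, Prrc2c, Rrm2, Scd2 and Urb2. Rps9 and Rpl10a had copies too, and the counts of all these genes are uncertain.

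The members and lists were chosen with earlier results of these data known. Genes named were Eif4a3, Ccnb1, Cdk1, Pou5f1, Sox2 and Nanog; the 10 highest and 10 lowest fold changes among called members whose libraries did not overlap and whose symbol was not a predicted, clone or pseudogene name; the 2 called members of each of 37 lists with the largest change, or the most abundant where none was called; and the 3 most abundant genes of each return class. Mdm2, Cdkn1a, Hspa5, Atp5b and Atp5d, Ssr3, the named eIF3 subunits, the promoter genes and members of counts of 5 or fewer were chosen after their values were seen.

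Alternatives were 1 fit over the 6 J1 libraries, DESeq2 1.42.0 size factors and its own test, upper quartile scaling, no filter, a mean of 10 CPM, an offset from loess curves on GC content and length, the replicate number as a block, other minimum counts, and leaving out each library. A fit on counts divided by the spread between libraries was added after seeing the data. A count of 0 allows up to 3 counts, which was 0.360 to 0.834 CPM, for counting error only.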

Additional observations from a re-analysis of the deposited data

Results flagged for a closer look

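Reads in the row for unaligned reads, which no comparison used, made up 40.8% of the reads of labelled KD replicate 1 and 45.2% of those of replicate 2, above the 15.7% to 15.9% of the control and labelled KD+Ccnb1 libraries. What these reads were was not tested.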

How the results depend on the processing

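Labelled KD libraries set the precision, with a spread of 22.0 times Poisson noise against 1.88 in labelled KD+Ccnb1. The main counts were 2343 genes higher and 1654 lower among all tested, and 787 and 953 among well counted genes. Leaving out 1 library gave 829 to 6959 higher and 532 to 4953 lower among all, and 458 to 1515 and 404 to 1599 among the well counted. With the GC and length offset 1555 of all and 439 of the well counted genes were higher, and 1194 of the 1740 calls among well counted genes remained (68.6%), with 12 called in the opposite direction. DESeq2's own test called 2521 genes lower. With a minimum of 50 counts, 7953 genes were well counted and 1426 of them rose; with 500, 1362 were, of which 311 rose and 460 fell. Genes back at control or beyond (157 from below, 140 from above) numbered 83 and 222 with the offset, 307 and 258 at 50 counts, 59 and 45 at 500 counts, and 282 and 270 when a difference of 0.5 started the return.

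With the replicate number as a block, 1263 of all genes rose and 955 fell; with the block and the offset, 705 of all and 343 of the well counted genes rose. The deviations of libraries with the same number had correlations of -0.031 (labelled KD and labelled KD+Ccnb1), -0.026 and 0.02, so no pairing by number was seen. With 2 libraries a group, and those of labelled KD far apart, this cannot show that the libraries were unpaired.

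Values that changed sign were those of Fn1 (-0.00), at 0.00 in 1 fit over the 6 libraries, 0.06 with no filter and also when counts were divided by the spread, and -0.01 to 0.11 without 1 library. So did Eif4a3, at 0.07 with the offset, 0.16 with block and offset, and -0.45 to 0.54 without 1 library. Ccnb1 was at -0.21, Cdk1 at -0.04 and Ccng1 at -0.42, each with the offset and with block and offset. The cause was not tested. Of the 92 named genes, 77 kept their call and direction with the offset, 84 with the block, 88 with upper quartile scaling and 92 with DESeq2 size factors.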

Other observations

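Some lists had no well counted member. The summed level of 14 genes of the 2-cell-like state was 27.1 and 29.3 CPM in the controls, 79.3 and 170 CPM in labelled KD, and 651 and 667 CPM in labelled KD+Ccnb1. Reads of this list can be split between near-identical copies. Of 4 well counted endoderm markers, the basement membrane genes Nid1 and Lamc1 rose by 1.74 (SE 0.15) and 1.20 (SE 0.08) and Sparc fell. The summed level of the 22 endoderm markers matched was 1211 and 1186 CPM in the controls, 1160 and 1300 CPM in labelled KD, and 2006 and 2038 CPM in labelled KD+Ccnb1. No count was found for 8 of the 22 in each labelled KD library, against 2 or 3 in the others. Fn1, which made up most of the fibroblast and feeder sum, stood at 767 and 706 CPM in labelled KD and 722 and 758 CPM in labelled KD+Ccnb1, and did not pass; with the GC and length offset it was at -0.35 (edgeR adjusted p = 0.0372). Bmp4, the well counted mesoderm marker, stood at 183 and 116 CPM and at 111 and 105 CPM and did not pass. Neuroectoderm markers summed to 281 and 262 CPM in the controls, 100 and 153 CPM in labelled KD, and 303 and 293 CPM in labelled KD+Ccnb1. Of these 17 markers, 6 and 7 had no count in the controls, 10 and 9 in labelled KD, and 6 and 5 in labelled KD+Ccnb1. Trophectoderm markers summed to 78.8 and 84.5, 67.1 and 109, and 117 and 128 CPM in the same order, and interferon response genes to 246 and 237, 154 and 137, and 164 and 179 CPM.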
